A study of Mus musculus with 23 samples.

Results

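Relb and 9 further genes of the NF-kB pathway were followed in GFP+ microglia sorted from mouse retinas. The 10 genes are Relb, Rela, Rel, Nfkb1, Nfkb2, Nfkbia, Nfkbie, Nfkbiz, Tnfaip3 and Bcl3. They were chosen by symbol, all 10 were found among the 35825 genes measured, and all 10 were among the 17102 genes that passed the filter on low values. The 23 libraries come from CX3CR1-GFP mice, which carry GFP in the Cx3cr1 locus and are wild-type for Spp1 (WT), and from Spp1 KO; CX3CR1-GFP mice, which lack Spp1 in all cells and carry the same GFP allele (KO). Retinas were naive, taken at 4 weeks after elevation of intraocular pressure (IOP) by microbead injection, or taken at day 7 after optic nerve crush (ONC). There are 4 libraries in each group except WT ONC, which has 3. Spp1 encodes osteopontin, a secreted protein, and the study asked how its loss changes microglia after injury. Each library is a pool, since retinas from several mice were combined for the sort, and the spread between libraries may be partly technical. Ages are not given in the labels.

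NF-kB is a family of dimeric transcription factors that carry inflammatory and survival signals in microglia and other immune cells. In resting cells the dimers are held in the cytoplasm by inhibitors of the IkB family, and receptors for TNF, interleukin-1 and microbial products act through the IKK kinases to release them. In the alternative branch of the pathway, the kinase encoded by Map3k14 drives processing of the Nfkb2 precursor, and the product pairs with Relb. Several of the genes encode both a part of the pathway and one of its targets, Nfkbia and Tnfaip3 being the textbook cases of negative feedback.

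Promoters are shown first, as NF-kB dimers bind a short DNA element, the kB motif. RefSeq promoter windows (GRCm38.p6, 250 bases before to 50 bases after a start site) were at hand for 7 of the 10 genes, as 10 windows. Relb, Nfkb1 and Nfkbiz had no window. The kB motif, searched as GGGRNNYYCC on both strands, was present in 8 of these 10 windows and in windows of 6 genes, against 8.46% of all 32851 windows in the table. Several of the windows with a motif belong to Nfkb2, and those starting at chr19:46305445 and chr19:46305680 overlap and hold the same site. A match is a description of the letters and shows no binding, and the part of the motif in the calls below was not tested. The 250 bases upstream of the start sites of Nfkbia (chr12:55492648-55492897, minus strand) and Nfkbie (chr17:45555450-45555699, plus strand), the inhibitor genes called in KO retinas after both injuries, read as follows, with the motif in capitals:
Nfkbia: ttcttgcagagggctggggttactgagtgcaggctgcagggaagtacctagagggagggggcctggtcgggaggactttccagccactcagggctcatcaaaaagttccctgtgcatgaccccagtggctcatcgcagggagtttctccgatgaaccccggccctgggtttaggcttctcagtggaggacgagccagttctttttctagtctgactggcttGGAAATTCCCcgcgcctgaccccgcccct
Nfkbie: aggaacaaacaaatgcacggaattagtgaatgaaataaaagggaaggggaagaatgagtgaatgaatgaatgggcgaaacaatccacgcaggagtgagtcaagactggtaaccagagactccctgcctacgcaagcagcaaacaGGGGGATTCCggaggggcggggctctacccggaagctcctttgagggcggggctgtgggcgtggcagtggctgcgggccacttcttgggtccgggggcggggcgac

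For 3 further genes a stretch of 30 bases around a motif is shown. They are Nfkb2 (chr19:46304688-46304717, plus strand), with the motif in capitals beginning 39 bases before the start site, Bcl3 (chr7:19822734-19822763, minus strand), whose motif lies just after the start site, and Tnfaip3 (chr10:19015516-19015545, minus strand), with the motif in capitals beginning 125 bases before it:
Nfkb2: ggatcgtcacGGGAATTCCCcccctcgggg
Bcl3: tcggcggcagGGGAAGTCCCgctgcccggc
Tnfaip3: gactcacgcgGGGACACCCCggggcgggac
This Nfkb2 window also held motifs beginning 38 and 11 bases before the start site, the first of which overlaps the one in capitals. The Tnfaip3 window also held a motif beginning 12 bases before it. The Rel window held overlapping motifs, and the Rela window held none.

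Read depth was even, at 22180480 to 30296094 reads on genes per library, and an undetected gene could still have up to 3 reads, or 2.41 to 4.03 normalized counts (counting error only). Values are normalized counts, that is, read numbers scaled by the size factor of each library. The microglial markers P2ry12, Tmem119 and Csf1r were abundant in all groups, and a list of 10 microglial markers made up 1.13 to 3.42% of the normalized counts. Libraries differed in this share within a group. KO naive replicates 1, 2 and 4 had 1.13, 1.33 and 1.47%, while replicate 3 had 3.29% and the WT naive libraries 2.56 to 3.22%. A list of 7 rod photoreceptor markers went the other way, with 2.54, 2.55 and 2.85% in KO naive replicates 1, 2 and 4 and 0.937% in replicate 3. WT ONC replicate 2 had 1.54% rod markers against 0.415 and 0.508% in the other WT ONC libraries, and lens markers reached 0.115 to 0.883% in the WT IOP libraries and at most 0.0109% elsewhere. In bulk libraries, fewer microglia and less RNA per microglial cell cannot be told apart.

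The targeted gene did not read as absent in every library labelled KO. Spp1 was at 350.2, 53.1, 6.78 and 81.6 normalized counts in KO naive against 333.6 to 1518 in WT naive, at 25.4, 810.7, 9.28 and 761.3 in KO IOP against 1343 to 2772 in WT IOP, and at 4750, 6811, 15.0 and 6226 in KO ONC against 14560 to 22910 in WT ONC. The KO libraries therefore fell below the WT libraries after IOP elevation and after ONC, but 6 of the 12 libraries labelled KO held more than 10% of the WT mean of their condition. Counts per gene do not show which exons the reads come from. Cx3cr1 was at 952.2 to 1233 in KO IOP and at 9417 to 67880 in the other groups. The Y-linked gene Ddx3y was at most 3.05 in KO IOP and at 632.8 to 2274 in WT IOP, and it was at 28.1 to 1713 in KO naive. It was at 0 to 2623 in WT naive, at 3.51, 9.21 and 1797 in WT ONC and at 1369 to 1717 in KO ONC. The sex of the pooled mice therefore cannot be told apart from genotype after IOP elevation, nor from IOP elevation in KO, and both enter the interaction. After ONC sex differed among the WT libraries and was uneven between genotypes. The low Cx3cr1 level was confined to KO IOP, so whatever lies behind it cannot be told apart from these IOP comparisons either. The labels do not give the copies of the GFP allele at this locus, and their part was not tested.

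Relb, the NF-kB subunit of the alternative branch, spans chr7:19606217-19629438 on the minus strand. It was low in naive microglia of both genotypes, with 71.0, 195.3, 192.6 and 387.3 normalized counts in WT and 346.2, 266.2, 175.3 and 75.6 in KO. After IOP elevation the WT libraries stayed in that range, at 229.0, 393.1, 133.0 and 69.1, whereas the KO libraries were at 433.7, 491.2, 1086 and 1018. After ONC the values were 1884, 963.2 and 2272 in WT and 1455, 1362, 1015 and 628.6 in KO. All 4 KO IOP libraries and all 7 ONC libraries lay above all 8 naive and all 4 WT IOP libraries, and the KO IOP, WT ONC and KO ONC libraries overlapped one another. Across the 23 libraries the highest Relb value was 32.9 times the lowest, a span exceeded among the 10 genes only by Bcl3.

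Relb rose after ONC in both genotypes. The log2 fold change against naive was 3.15 (standard error 0.60, adjusted p = 0.000899) in WT and 2.496 (standard error 0.55, adjusted p = 0.00246) in KO, by limma on log2(normalized count + 1) with Benjamini-Hochberg adjustment over 17102 genes. Both calls held in each of the fits that left out 1 library, 7 in WT and 8 in KO. The KO call was lost with the rod photoreceptor covariate (log2 fold change 2.12, adjusted p = 0.107), the microglial covariate (2.21, adjusted p = 0.176) and when KO was restricted to libraries with Spp1 at no more than 10% of the WT mean (2.73, adjusted p = 0.167). In KO microglia Relb also rose after IOP elevation (log2 fold change 1.89, standard error 0.55, adjusted p = 0.0408), a call kept in 2 of 8 such fits. In WT microglia after IOP elevation the log2 fold change was -0.08 (standard error 0.55, adjusted p = 0.970).

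The direct comparison of KO with WT after IOP elevation gave a Relb log2 fold change of 2.03 (standard error 0.55), which missed the threshold with an adjusted p of 0.0564. It passed with quantile normalization (adjusted p = 0.0358), with DESeq2 on recovered reads (0.0134) and without WT IOP replicate 2 (0.0260), and its adjusted p was at most 0.230 in the other fits that left out 1 library. The interaction of genotype and IOP elevation was 1.97 (standard error 0.78, adjusted p = 0.113). KO and WT differed by 0.06 (standard error 0.55) in naive retinas and by -0.60 (standard error 0.60) after ONC, with adjusted p = 0.972 and 0.812. Relb is among the genes that the study named from these libraries.

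**Figure D1:**
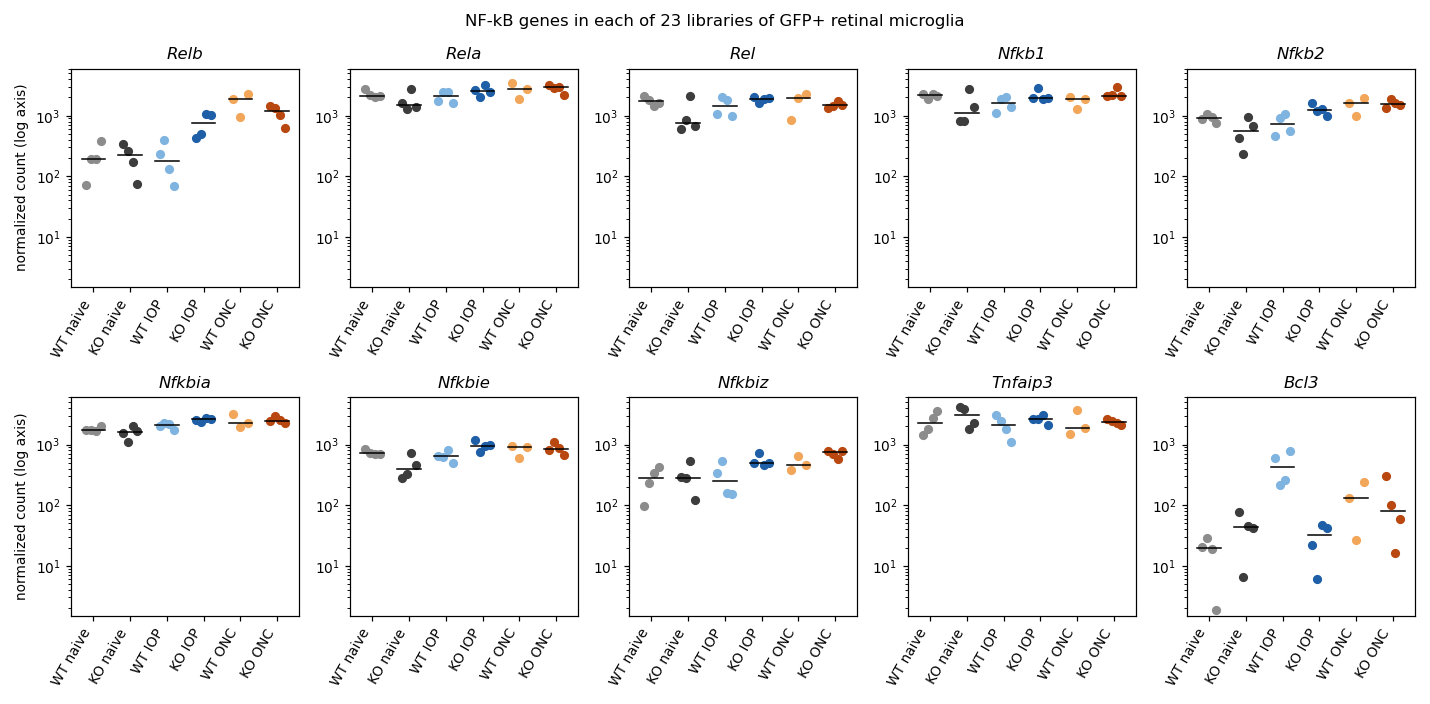
Normalized counts (log axis) of the 10 NF-kB genes in each of 23 libraries, by group; points are libraries in the order of their replicate numbers and bars are group medians. Relb lies at 69.1 to 393.1 in naive and WT IOP libraries and at 433.7 to 2272 in KO IOP and ONC libraries, and Bcl3 lies at 215.7 to 771.1 in WT IOP.

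The other 4 subunit genes had smaller changes than Relb in the comparisons of ONC with naive retinas and of IOP elevation with naive in KO. Nfkb2, which encodes the precursor that pairs with Relb, was at 874.4, 1058, 957.7 and 755.0 normalized counts in WT naive and at 423.7, 236.4, 962.9 and 687.6 in KO naive. It was at 984.5 to 1610 in KO IOP and at 973.5 to 1957 in the 7 ONC libraries, so that its KO IOP and KO ONC libraries lay above all 4 KO naive libraries. Nfkb2 rose in KO microglia after IOP elevation (log2 fold change 1.30, standard error 0.33, adjusted p = 0.0256) and after ONC (1.63, standard error 0.33, adjusted p = 0.00137). The first call was kept in 2 of 8 fits that left out 1 library and the second in 8 of 8. In WT it was at 0.69 (standard error 0.36, adjusted p = 0.182) after ONC.

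Rela, the main activating subunit of the canonical branch, had 1290 to 3498 normalized counts over all libraries and the highest mean level per kb of exon among the subunit genes. It rose in KO after ONC by 0.74 on the log2 scale (standard error 0.23, adjusted p = 0.0217). Nfkb1, whose product is the usual partner of Rela, rose in the same comparison by 0.87 (standard error 0.29, adjusted p = 0.0305). Each of these calls was kept in 3 of 8 fits that left out 1 library, and with the microglial covariate the values turned to -0.11 for Rela and -0.21 for Nfkb1. Rel, a subunit typical of blood and immune cells, was at 0.70 there (standard error 0.33, adjusted p = 0.132). Nfkb1 was at 827.8, 823.5, 2719 and 1400 in KO naive and at 2109 to 2995 in KO ONC, and replicate 3 of KO naive alone overlapped the KO ONC libraries.

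Divided by exon length, the order of the mean levels was Nfkbia (1344 normalized counts per kb of exon), Rela (766), Tnfaip3 (344), Nfkbie (245), Nfkb2 (237), Rel (209), Relb (169), Nfkb1 (159), Nfkbiz (86.9) and Bcl3 (54.0). Neighbours in this order overlapped in their ranges over the 23 libraries, so the order is one of means only. Of the summed level per kb of the 5 subunit genes, Relb made up 4.01 ± 2.60% (SD, n = 4) in WT naive, 6.24 ± 4.29% in KO naive, 4.26 ± 2.47% in WT IOP, 11.0 ± 4.33% in KO IOP, 21.0 ± 3.77% (n = 3) in WT ONC and 14.5 ± 3.75% in KO ONC. The shares in WT ONC (17.0 to 24.5%) and WT naive (1.17 to 7.48%) did not overlap, while those in KO ONC (10.1 to 18.1%) and KO naive (2.35 to 10.4%) did. Rela held the largest share in every group, from 43.8 ± 6.12% in WT ONC to 56.9 ± 3.49% in KO naive.

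**Figure D2:**
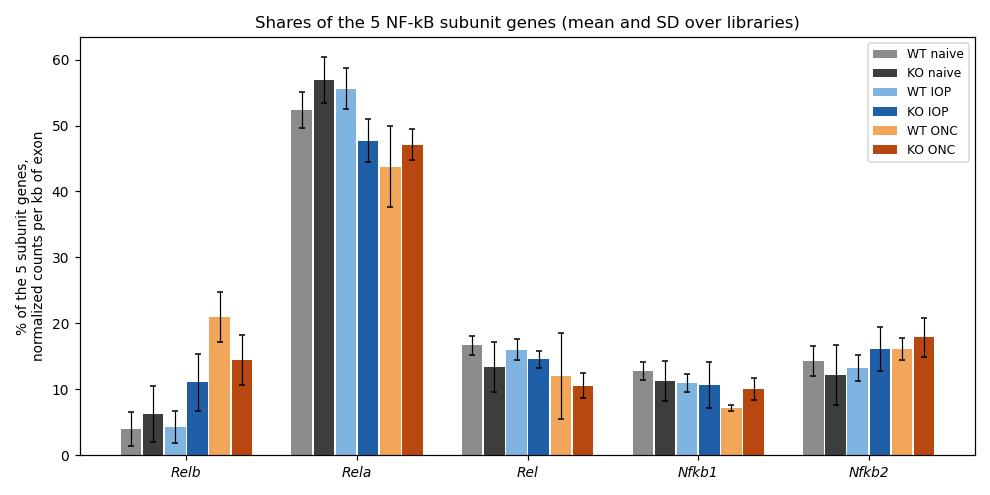
Share of each of the 5 subunit genes in their summed normalized counts per kb of exon, in percent, by group (bars are means and error bars SD over 3 or 4 libraries). Relb rises from 4.01% in WT naive to 21.0% in WT ONC, and Rela stays the largest share in all groups.

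Among the inhibitors, Nfkbia, the classical IkB gene that NF-kB itself induces, was at 1654 to 2005 normalized counts in WT naive, at 1554, 1114, 2060 and 1660 in KO naive, and at 2539, 2324, 2772 and 2682 in KO IOP. The KO IOP libraries lay above all 8 naive libraries and all 4 WT IOP libraries (1743 to 2297). Nfkbia rose in KO after IOP elevation (log2 fold change 0.72, standard error 0.18, adjusted p = 0.0229) and after ONC (0.71, standard error 0.18, adjusted p = 0.00556), calls kept in 4 and 7 of 8 fits that left out 1 library. In WT after ONC it was at 0.45 (standard error 0.19, adjusted p = 0.0978).

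Nfkbie, a further IkB gene, was at 284.1, 328.9, 739.1 and 467.4 in KO naive and at 1190, 752.4, 950.6 and 981.4 in KO IOP. These groups did not overlap, while WT naive (702.7 to 856.6) and WT IOP (490.1 to 829.8) did. Nfkbie rose in KO after IOP elevation (log2 fold change 1.17, standard error 0.25, adjusted p = 0.0159) and after ONC (1.00, standard error 0.25, adjusted p = 0.00668), calls kept in 6 and 8 of 8 such fits.

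Nfkbiz, a nuclear IkB protein that acts as a coactivator, rose in KO after ONC (1.41, standard error 0.45, adjusted p = 0.0272, kept in 3 of 8 such fits), with 780.6, 708.1, 589.3 and 782.3 there against 119.8 to 528.9 in KO naive. Tnfaip3, which encodes the deubiquitinase A20, was at 1092 to 4245 over all libraries and was not called in any of the 9 comparisons or over the 6 groups (adjusted p = 0.729, moderated F test in limma). Its naive libraries alone covered 1416 to 3575 in WT and 1800 to 4245 in KO.

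Bcl3, which encodes a nuclear IkB protein, was the 1 gene of the 10 with a negative log2 fold change between KO and WT after IOP elevation. It was at 20.4, 28.6, 18.6 and 1.86 normalized counts in WT naive and at 599.1, 215.7, 259.3 and 771.1 in WT IOP, where all 4 libraries lay above those of naive and KO IOP. In KO it was at 77.6, 6.43, 45.5 and 41.6 in naive and at 22.4, 6.03, 46.4 and 41.4 after IOP elevation. Bcl3 rose in WT after IOP elevation (log2 fold change 4.87, standard error 0.95, adjusted p = 0.00890) and, after IOP elevation, was at lower values in KO than WT (-4.07, standard error 0.95, adjusted p = 0.0257).

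The 4 WT IOP libraries are those with lens markers, at 0.815, 0.170, 0.115 and 0.883% in replicates 1 to 4, and replicates 1 and 4, with the higher lens shares, had the higher Bcl3 values. WT IOP also had the highest group medians of the neutrophil gene S100a8 (36.6 normalized counts) and of astrocyte markers (0.00984%). The part of lens, neutrophil or astrocyte RNA in the Bcl3 difference was not tested. The comparison of KO with WT lost its call when WT IOP replicate 1 or 4 or KO IOP replicate 1 or 2 was left out (highest adjusted p 0.115, without WT IOP replicate 4), while the rise in WT held in all 8 fits that left out 1 library.

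Over the 6 groups, 6 of the 10 genes varied (adjusted p under 0.05 in the moderated F test), namely Relb, Nfkb2, Nfkbia, Nfkbie, Nfkbiz and Bcl3, against 31.4% of all genes tested. For single comparisons, a call needed an adjusted p under 0.05 together with a change of more than 0.58 on the log2 scale in either direction. ONC against naive in KO called 7 of the 10, all higher, where 23.6% of all genes were called and 12.7% were called higher. ONC against naive in WT called 1, Relb, where 18.1% of all genes were called and 7.55% were called higher. IOP elevation against naive in KO called 4, all higher, where 7.88% of all genes were called and 5.06% were called higher. IOP elevation against naive in WT called 1, Bcl3, where 1.56% were called and 0.842% were called higher.

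Between genotypes, the comparison after IOP elevation called 1 of the 10, Bcl3 (all genes, 2.11%), with 5 at an unadjusted p under 0.05, of which Relb, Nfkb2, Nfkbie and Nfkbiz had positive log2 fold changes of 0.58 to 2.03. Naive retinas gave 0 of 10 in limma (all genes, 0.409%), with 4 at an unadjusted p under 0.05 (Rel, Nfkb1, Nfkb2 and Nfkbie, at -0.90 to -0.75), and edgeR and DESeq2 on recovered reads also gave 0. After ONC 0 of 10 were called in limma (all genes, 0.0877%), with 0 at an unadjusted p under 0.05 and 0 in edgeR and DESeq2. Without WT ONC replicate 2, 4.35% of all genes were called there and still 0 of the 10. The shares of all genes in brackets are of calls. More of all genes pass an unadjusted p under 0.05, so the unadjusted counts cannot be set against these shares. The median log2 fold change of the 10 genes was 0.43 after IOP elevation, 0.08 after ONC and -0.30 in naive retinas, against -0.03, 0.03 and 0.03 over all genes.

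A call in KO and none in WT does not by itself show a difference between them. The interaction of genotype and IOP elevation called 3 of the 10 (all genes, 8.75%): Nfkb2 at 1.65 (standard error 0.47, adjusted p = 0.0341), Nfkbie at 1.40 (standard error 0.36, adjusted p = 0.0218) and Bcl3 at -5.33 (standard error 1.34, adjusted p = 0.0196). The interaction of genotype and ONC called 0 in limma (all genes, 0.0702%), with 2 at an unadjusted p under 0.05, and 0 in edgeR and DESeq2. Without KO naive replicate 3 it called 1 of the 10 and 3.70% of all genes. The share of all genes at an unadjusted p under 0.05 in this interaction is given with the wider pathway below.

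These comparisons share the naive libraries of each genotype, and KO naive decides several of them. Without KO naive replicate 3, the KO naive library with the microglial marker share of the WT naive libraries, 4 of the 10 genes were called lower in KO than in WT in naive retinas (Rel, Nfkb1, Nfkb2 and Nfkbie; all genes, 9.49%), 8 of the 10 were called in KO after IOP elevation (all genes, 18.6%) and 6 in its interaction with genotype (all genes, 18.0%). Without KO naive replicate 1 or 2, 0 of the 10 were called in KO after IOP elevation, where 1.20% and 0.538% of all genes were called. With the mean of the rod photoreceptor markers as a covariate, or with that of the microglial markers, 0 of the 10 were called in KO after either injury. All-gene calls fell as well, to 0.0702% and 0.0234% after IOP elevation and to 4.11% and 2.32% after ONC, so these counts say little about the 10 genes in particular. The Relb rise in WT after ONC was called with either covariate, at 2.99 and 3.07.

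**Figure D3:**
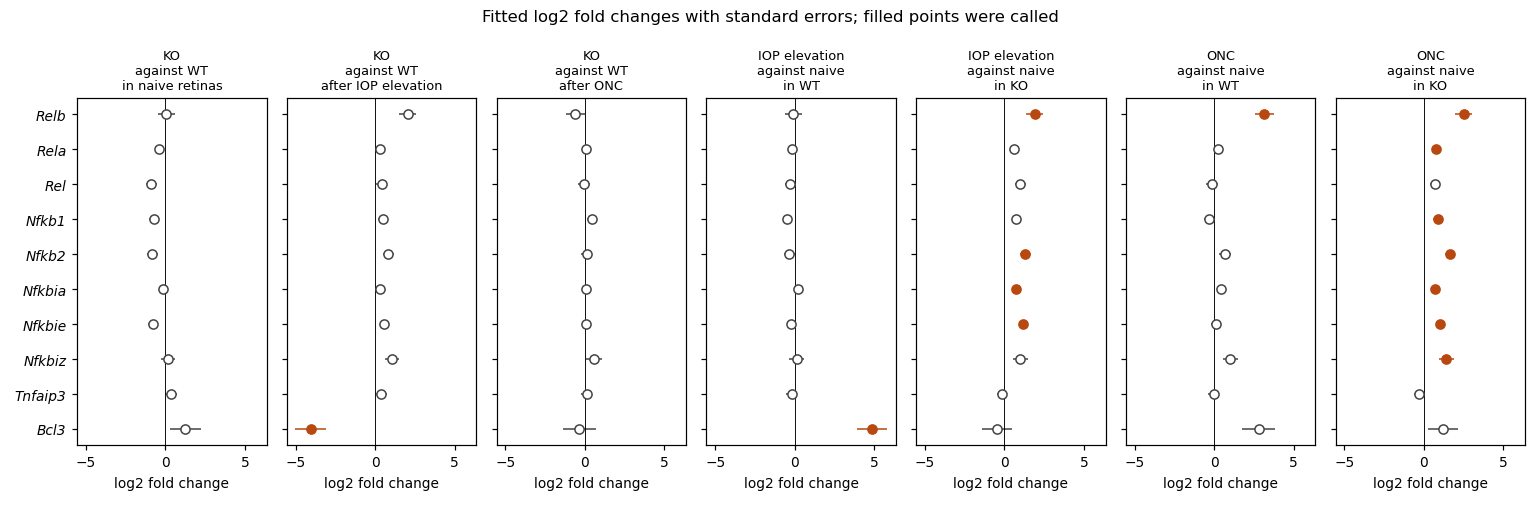
Log2 fold changes of the 10 genes in 7 comparisons (points, with standard errors as bars); filled points were called by limma. Relb is filled in both ONC comparisons and in IOP elevation against naive in KO, with 3.15 as its highest value, and Bcl3 is filled on opposite sides of 0 in the 2 comparisons that use WT IOP, at 4.87 and -4.07.

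The genes followed the marker shares to different degrees. Over the 23 libraries, which share their group structure, Pearson's r of their log2 values with the log2 share of the microglial markers was 0.91 for Nfkbie, 0.88 for Nfkb1, 0.87 for Rela, 0.84 for Nfkb2 and 0.79 for Rel, and 0.40 for Relb. With the rod photoreceptor share r was -0.75 for Relb, -0.88 for Rela and -0.85 for Nfkb2. With the share of 5 neutrophil markers r was 0.87 for Nfkb2, 0.80 for Rela, 0.79 for Nfkbie and 0.64 for Relb. Of the 5, 2 to 5 were above 0 in a library, and their share was 0.0145 to 0.0378% in KO naive, 0.0338 to 0.0479% in KO IOP and 0.0591 to 0.0656% in KO ONC. Csf3r, at 3254 to 20190 normalized counts over the libraries, made up nearly all of it, while S100a8, S100a9 and Retnlg were at most 9.80 in the KO libraries and in WT naive and WT ONC. In WT IOP S100a8 was at 10.95 to 64.7 and S100a9 at 1.10 to 36.3. Cxcr2 was at 196.0 to 282.7 in WT IOP and reached 251.7 in KO naive. Bcl3 had an r of 0.54 with the lens markers and between -0.30 and 0.02 with the microglial, rod photoreceptor, Muller glia and neutrophil markers. The part of the marker shares in the differences between groups was not tested beyond the covariates above.

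**Figure D4:**
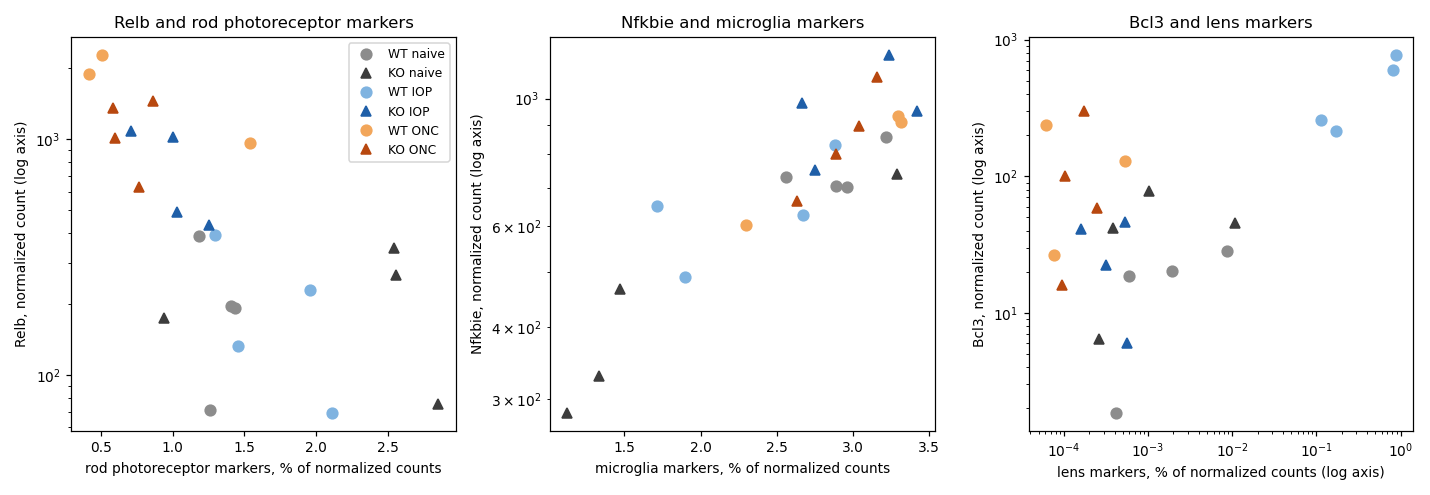
Normalized counts (log axis) of Relb, Nfkbie and Bcl3 against the percent of normalized counts held by rod photoreceptor, microglial and lens markers, in 23 libraries (circles WT, triangles KO, colours by group; the lens axis is a log axis). Nfkbie increases with the microglial share, from 284.1 at 1.13%, and the 4 WT IOP libraries with 0.115 to 0.883% lens markers hold Bcl3 values of 215.7 to 771.1.

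The 5 genes whose log2 values were most like Relb over the 23 libraries were Gltp (r = 0.97), Lmo2 (0.96), Slc25a39 (0.96), Mfsd12 (0.96) and Chn2 (0.96). With the group means removed, r was 0.94, 0.91, 0.92, 0.87 and 0.89. The genes were picked by r over these same libraries, so the values within groups are no separate support for the likeness. Gltp encodes a glycolipid transfer protein, Lmo2 a transcriptional adaptor of blood cells and Chn2 a GTPase-activating protein. Gltp was at 2926 ± 1540 (SD, n = 4) normalized counts in WT naive, 2212 ± 1070 in WT IOP, 6029 ± 2488 in KO IOP and 13490 ± 5215 (n = 3) in WT ONC. The NF-kB gene most like Relb was Nfkbiz (r = 0.78), in place 541 of all genes, and Nfkb2 had an r of 0.58 that came to -0.12 with the group means removed.

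The closest pair among the 10 genes was Nfkb2 and Nfkbie (r = 0.84). Relb also followed the GC content of the libraries. Its 5 most like genes did too, but they were picked for likeness to Relb over these libraries and add no separate support. The slope of a library's log2 values on transcript GC content correlated with Relb at r = 0.65 and with the 5 genes at 0.58 to 0.75. Relb transcripts have 56.8% GC, above 86.4% of the genes tested, and the 5 genes have 45.2% (Chn2) to 61.8% (Mfsd12). Rela, Nfkb2 and Bcl3 have 59.4%, 59.4% and 62.65% GC, with r of 0.02, 0.008 and -0.08 with the slope. Tnfaip3 has 47.1% GC, with an r of 0.55. The part of GC content in the Relb differences was not tested.

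The wider pathway was read from 6 lists of 115 genes, of which 113 were in the table and 109 passed the filter (Nos2 and Junb were not analysed here). ONC against naive in KO called 49 of the 109, all higher. ONC against naive in WT called 28, of which 26 were higher and 2 lower. IOP elevation against naive called 29 in KO, 28 of them higher, and 4 in WT, 3 of them higher. As shares these are 45.0%, 25.7%, 26.6% and 3.67% of the 109 genes, beside the 23.6%, 18.1%, 7.88% and 1.56% of all genes given above.

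KO against WT called 5 of the 109 genes after IOP elevation (4.59%, all genes 2.11%), 1 in naive retinas (0.917%, all genes 0.409%) and 0 after ONC in limma, where 14 had an unadjusted p under 0.05 (12.8%, all genes 9.36%), edgeR called 0 and DESeq2 called 2. The interaction of genotype called 16 with IOP elevation (14.7%, all genes 8.75%), of which 13 were positive, and 0 with ONC in limma, where 19 had an unadjusted p under 0.05 (17.4%, all genes 12.4%), edgeR called 0 and DESeq2 called 3.

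Of the 6 ligand genes tested, 4 rose in KO after IOP elevation and the same number after ONC, namely Il1b, Il1a, Tnf and Tnfsf13b in both. Called genes were 66.7% of the list in each, and 16.7% in WT after ONC. Of all genes, 7.88%, 23.6% and 18.1% were called in these comparisons. Il1b, which encodes interleukin-1 beta, had 76.9 ± 24.4 normalized counts (SD, n = 4) in KO naive, 244.1 ± 41.6 in KO IOP and 434.7 ± 174.5 in KO ONC. Its log2 fold changes against naive were 1.68 after IOP elevation (standard error 0.42, adjusted p = 0.0239) and 2.46 after ONC (standard error 0.42, adjusted p = 0.000300). In WT Il1b alone among the ligands was called, after ONC (1.95, standard error 0.45, adjusted p = 0.00496). The ONC calls of Il1b in both genotypes held in all fits that left out 1 library, and the calls of Tnf and Tnfsf13b after IOP elevation held in 1 of 8 each.

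Of the 15 receptor genes, 7 rose in KO after ONC, 5 in KO after IOP elevation and 5 in WT after ONC. As shares these are 46.7%, 33.3% and 33.3%, beside 23.6%, 7.88% and 18.1% of all genes called. Tlr2, a receptor for bacterial lipoproteins, was at 3651 ± 672.0 (SD, n = 4) in WT naive and 14550 ± 6352 (n = 3) in WT ONC, and its log2 fold change was 1.91 (standard error 0.36, adjusted p = 0.000876). In KO Tlr2 rose by 2.10 after ONC (standard error 0.33, adjusted p = 0.000149) and by 1.502 after IOP elevation (standard error 0.33, adjusted p = 0.0173). Tlr1, its partner, rose in the same 3 comparisons, by 1.10 to 1.63. Cd40, a receptor that acts through the alternative branch, was called in WT after ONC (2.11, standard error 0.70, adjusted p = 0.0386), in 2 of 7 fits that left out 1 library.

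Tnfrsf12a, the receptor for the cytokine TWEAK, rose in WT after ONC, as Tlr2 and Tlr1 did (1.33, standard error 0.44, adjusted p = 0.0388). This call was kept in 2 of 7 fits that left out 1 library. After IOP elevation Tnfrsf12a went unlike Tlr2 and Tlr1, whose group means were higher in KO than in WT. Tnfrsf12a had 335.2 ± 189.2 normalized counts (SD, n = 4) in WT IOP and 99.8 ± 31.6 in WT naive, 125.8 ± 22.6 in KO naive and 84.0 ± 34.6 in KO IOP. After IOP elevation KO was below WT, by a log2 difference of -1.93 (standard error 0.41, adjusted p = 0.0146), a call kept in 5 of 8 such fits.

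Of the 26 adaptor genes, 10 rose in KO after ONC, 4 in WT after ONC and 3 in KO after IOP elevation. As shares these are 38.5%, 15.4% and 11.5%, beside 23.6%, 18.1% and 7.88% of all genes called. Card9, an adaptor of myeloid cells, rose in KO by 1.03 after IOP elevation (standard error 0.25, adjusted p = 0.0218) and by 1.42 after ONC (standard error 0.25, adjusted p = 0.000358). Card9 was at 842.3 ± 65.9 (SD, n = 4) normalized counts in WT naive, 530.7 ± 129.6 in WT IOP, 466.4 ± 218.1 in KO naive and 897.1 ± 132.7 in KO IOP. Its interaction of genotype and IOP elevation was 1.72 (standard error 0.35, adjusted p = 0.00788). This call held in all 16 fits that left out 1 library but was lost with the rod photoreceptor and with the microglial covariate. Ripk1, a kinase at the TNF receptor, rose in WT after ONC by 2.04 (standard error 0.53, adjusted p = 0.0110).

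Of the 6 IKK kinase genes, 3 rose in KO after ONC, namely Ikbke (2.88, standard error 1.00, adjusted p = 0.0392), Map3k14 (1.11, standard error 0.31, adjusted p = 0.0118) and Ikbkb (0.96, standard error 0.20, adjusted p = 0.00188). Called genes were 50% of the list there (all genes, 23.6%) and 16.7% in WT after ONC (all genes, 18.1%). Map3k14, the kinase of the alternative branch, was at 319.9 ± 122.0 (SD, n = 4) in KO naive and 673.8 ± 170.1 in KO ONC. In WT it was at 426.4 ± 56.8 in naive and 378.8 ± 30.7 (n = 3) after ONC. Ikbke rose in WT after ONC as well (3.54, standard error 1.08, adjusted p = 0.0263).

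Among the 18 other inhibitors, 6 rose in KO after ONC, and in WT after ONC 2 rose and 1 fell. Called genes were 33.3% of the list in KO (all genes, 23.6%) and 16.7% in WT (all genes, 18.1%). Tnip2, which binds A20, rose after ONC in both genotypes, by 0.71 in WT (standard error 0.17, adjusted p = 0.00613) and by 0.94 in KO (standard error 0.16, adjusted p = 0.000244). Rnf11, which encodes a partner of A20, was the 1 gene of this list called in KO after IOP elevation. It fell by 1.57 on the log2 scale (standard error 0.45, adjusted p = 0.0392), a call kept in 2 of 8 fits that left out 1 library.

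Of the 38 target genes tested, 19 rose in KO after ONC, 15 in KO after IOP elevation and 13 in WT after ONC, where 1 fell. Called genes were 50%, 39.5% and 36.8% of the list, beside 23.6%, 7.88% and 18.1% of all genes. Il1rn, the interleukin-1 receptor antagonist, had 21.6 ± 3.46 (SD, n = 4) normalized counts in KO naive, 183.8 ± 78.8 in KO IOP and 549.5 ± 230.4 in KO ONC. In WT it was at 75.2 ± 24.8 in naive, 58.0 ± 24.6 after IOP elevation and 1281 ± 734.1 (n = 3) after ONC. Its interaction of genotype and IOP elevation was 3.35 (standard error 0.63, adjusted p = 0.00547). This call held in all 16 fits that left out 1 library but was lost with the rod photoreceptor and with the microglial covariate. The chemokine gene Ccl4 rose in WT after ONC from 251.6 ± 57.2 to 3597 ± 1003 (log2 fold change 3.82, standard error 0.44, adjusted p = 6.17e-06). Cxcl10 rose there from 156.5 ± 71.3 to 1928 ± 629.6 (3.69, standard error 0.52, adjusted p = 5.01e-05). The acute-phase gene Saa3 was at 0 to 3.88 in KO naive, at most 4 reads, and at 92.6 to 517.5 in KO ONC.

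Between genotypes after IOP elevation, 4 target genes were called (10.5% of the list, all genes 2.11%), and they went both ways. Ccl5, a chemokine gene, was higher in KO, at 993.7 ± 198.1 against 368.1 ± 230.3 (SD, n = 4 each; log2 fold change 1.58, standard error 0.37, adjusted p = 0.0285). Ptgs2, which encodes cyclooxygenase 2, was at 23.2 to 64.96 in KO IOP and at 0 to 5.50 in WT IOP, at or near the counting limit, and its call held in 1 of 8 fits that left out 1 library. It was at 17.6 to 147.1 in WT naive and at 0 to 21.3 in KO naive. In WT Ptgs2 fell after IOP elevation (-4.76, standard error 1.10, adjusted p = 0.0293), a call kept in 2 of 8 such fits. Lcn2, which encodes lipocalin 2, was lower in KO (134.8 ± 139.5 against 1981 ± 1559, log2 fold change -5.25, standard error 1.26, adjusted p = 0.0304), as was Gadd45b (-1.73, standard error 0.41, adjusted p = 0.0295). The calls of Lcn2 and Gadd45b were kept in 4 of 8 such fits each. Lcn2, Gadd45b and Tnfrsf12a had their highest group means in WT IOP, the group with 0.115 to 0.883% lens markers. The medians of S100a8 and of astrocyte markers were also highest in that group. The part of lens, neutrophil or astrocyte RNA in these differences was not tested. Ccl5 and Ptgs2 were named by the study from these libraries. In naive retinas Cd86, a costimulatory receptor gene, was the 1 gene called, at 3443 ± 1779 in KO and 7139 ± 842.7 in WT (log2 fold change -1.16, standard error 0.24, adjusted p = 0.0347), a call kept in 1 of 8 fits that left out 1 library.

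**Figure D5:**
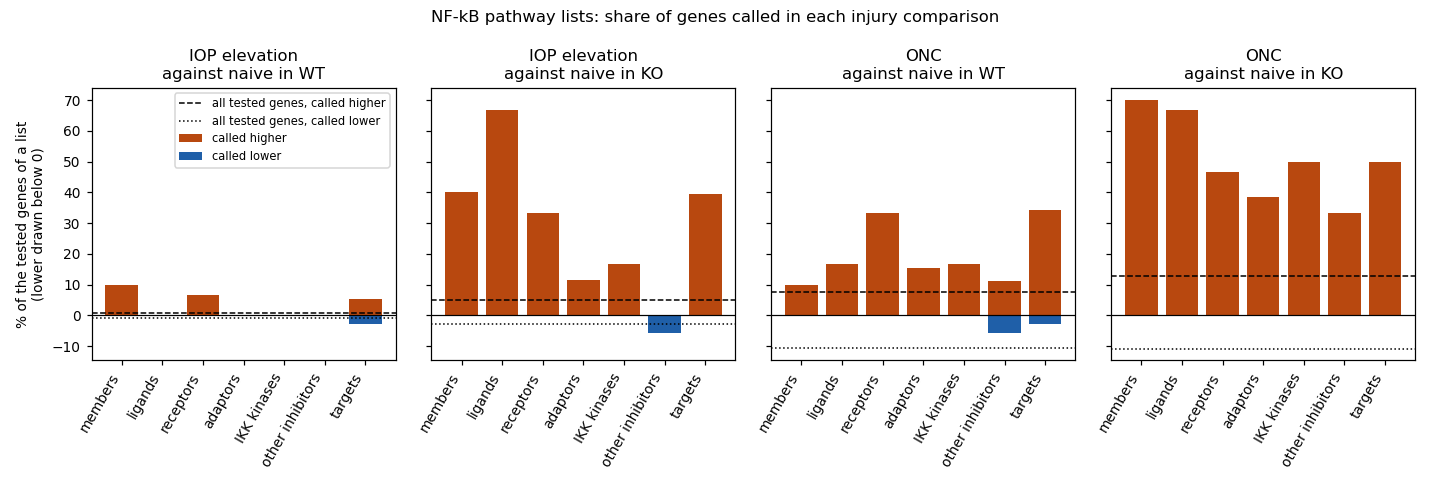
Percent of the tested genes of each list called higher (above 0) and lower (below 0) in the 4 comparisons of injured with naive retinas; dashed and dotted lines give the percent of all tested genes called higher and lower. In KO after ONC the bars of all 7 lists stand above the 12.7% of all genes called higher, and in WT after IOP elevation 4 of the 7 lists have no called gene.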

How the data were processed

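RNA-seq was done on GFP+ microglia sorted from pooled retinas, in 23 libraries. The study's methods name salmon with GRCm38 and DESeq2, while the submitters' processing notes list STAR, DESeq2 and GRCm38 without versions, so the quantifier is uncertain. The deposited values are a signal: the authors scaled each library's gene counts with one size factor. Of the values, 100% in each library were whole multiples of 1 read within 0.01 read, so reads were recovered for count models. Of 35825 gene IDs, 34732 matched a symbol.

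Groups were taken from the labels. Values were taken as log2(normalized count + 1) and fitted in R 4.3.3 by limma 3.58.1 with a mean-variance trend on the 17102 genes with at least 10 in at least 3 libraries, with 6 groups, 17 residual degrees of freedom and Benjamini-Hochberg adjustment. Named genes were the 10 members, up to 4 called pathway genes of each list with the largest changes, the 5 genes most like Relb, Spp1 and Cx3cr1; Ddx3y was added after its values were seen. The members and lists were chosen with earlier results of these data known. Positions come from GENCODE M21. Alternatives were another pseudocount, other filters, quantile normalization, a replicate block, marker covariates, each comparison fitted alone, edgeR 4.0.16 and DESeq2 1.42.0 on recovered reads, and leaving out each library. The fit was tested on simulated data. Plots were drawn with matplotlib 3.10.9, and tables were made with pandas 2.3.3 in Python 3.11.15. GC content was read from the longest transcript of 96.3% of the tested genes.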

Additional observations from a re-analysis of the deposited data

Results flagged for a closer look

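Among 50 groups of 4 libraries examined (10 genes in 5 groups), 4 had 1 library far from the other 3, where chance gives about 1 in 20. These were Rel in KO naive replicate 3 (2145 normalized counts), Nfkb1 in KO IOP replicate 2 (2847), Nfkb1 in KO ONC replicate 3 (2995) and Nfkbiz in KO IOP replicate 2 (738.4). KO naive replicate 3 is the KO naive library with the highest share of microglial markers, and its part in the comparisons is given with the results above.

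For 3 genes the effect of IOP elevation differed between KO and WT by the interaction term in limma. Nfkb2 had an interaction of 1.65 (adjusted p = 0.0341), Nfkbie of 1.40 (adjusted p = 0.0218) and Bcl3 of -5.33 (adjusted p = 0.0196), on the log2 scale. The Nfkb2 call was kept in 6 of 16 fits that left out 1 library, and those of Nfkbie and Bcl3 in 14 of 16 each. With the rod photoreceptor or the microglial covariate 0 of the 3 were called.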

How the results depend on the processing

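Of the 17 called values of the 10 genes, 17 were still called with a pseudocount of 5, with a mean filter of at least 50, with the adjusted p alone and with the replicate block, 16 without a filter, with quantile normalization and with DESeq2, 13 with edgeR, 11 with each comparison fitted alone and 3 with the rod photoreceptor covariate. A microglial covariate and the restriction of KO to libraries with Spp1 at no more than 10% of the WT mean, both chosen after seeing the data, left 3 and 2. The restriction leaves 1 KO ONC library, which is assumed to vary like the others. The cause was not tested for any of the changes below.

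Among the 10 genes, KO against WT after IOP elevation called 2 with quantile normalization and DESeq2 and 0 with the Spp1 restriction, in place of 1. ONC in WT called 2 in place of 1 with edgeR and DESeq2, both higher, and 2 with the microglial covariate, where the added gene, Nfkb1, was lower (-0.63). IOP elevation in KO called 2 with edgeR and 0 with either covariate, the Spp1 restriction or a fit alone, in place of 4. Both covariates and the restriction left 0 in place of 7 for ONC in KO, 0 in place of 3 for the interaction with IOP elevation and 2 in place of 6 over the 6 groups. The median log2 fold change of the 10 genes for ONC in KO, 0.94, was 0.86 with the restriction, 0.38 with the rod photoreceptor and 0.31 with the microglial covariate, and that for IOP elevation in KO, 0.88, was 0.82, 0.52 and 0.33.

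Among the 109 pathway genes, KO against WT in naive retinas called 6 with quantile normalization, 4 with DESeq2, 2 with the replicate block and 0 with edgeR, a fit alone, the microglial covariate or the restriction, in place of 1. After IOP elevation it called 8, 9 and 3 with quantile normalization, DESeq2 and edgeR, and 1 with either covariate, the restriction or a fit alone, in place of 5. After ONC it called 2 with DESeq2, in place of 0. IOP elevation in WT called 2 without a filter or in a fit alone and 1 with the restriction, in place of 4. IOP elevation in KO called 17 without a filter, 11 with edgeR and 0 with either covariate, the restriction or a fit alone, in place of 29. ONC in KO called 20, 15 and 7 with the rod photoreceptor covariate, the microglial covariate and the restriction, in place of 49. The interaction with IOP elevation called 10 with edgeR, 2 with the restriction and 0 with either covariate, in place of 16, and that with ONC called 1 with the rod photoreceptor covariate and 3 with DESeq2, in place of 0.

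In the fits that left out 1 library, the 10 genes gave 0 to 4 calls for KO against WT in naive retinas (4 without KO naive replicate 3), 0 to 2 after IOP elevation (0 without KO IOP replicate 1 or 2 or WT IOP replicate 1 or 4, 2 without WT IOP replicate 2), 1 to 3 for ONC in WT (3 without WT ONC replicate 2), 0 to 8 for IOP elevation in KO, 3 to 8 for ONC in KO, 0 to 6 for the interaction with IOP elevation and 0 to 1 for that with ONC. The pathway genes gave 0 to 24, 0 to 9 and 0 to 1 for KO against WT in naive retinas, after IOP elevation and after ONC, 0 to 3 for IOP elevation in WT, 3 to 44 in KO, 5 to 40 for the interaction with IOP elevation and 0 to 9 for that with ONC. Over all genes, KO against WT in naive retinas called 70, with 1 to 1623 over the alternatives, IOP elevation in KO called 1347 (4 to 3182), ONC in WT called 3093 (1458 to 5213), KO against WT after ONC called 15 (2 to 744, the highest without WT ONC replicate 2), and the interaction with ONC called 12 (1 to 633, the highest without KO naive replicate 3).

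The log2 fold change of Relb between KO and WT in naive retinas, 0.06, turned to -0.21 with quantile normalization and -0.23 with the restriction, and was -0.38 to 0.49 without 1 library. That of Relb after IOP elevation in WT, -0.08, turned to 0.04 with the rod photoreceptor and 0.01 with the microglial covariate, and was -0.52 to 0.35 without 1 library. With the microglial covariate, Rela turned to -0.13 and -0.11 in KO after IOP elevation and ONC and to -0.23 in the interaction with IOP elevation, Rel to -0.13 in KO after ONC, and Nfkb1 to 0.06 in naive retinas, -0.16 and -0.21 in KO after IOP elevation and ONC and -0.03 in that interaction, while Nfkb2 turned to 0.01 in naive retinas.

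Libraries with the same replicate number did not deviate together. The correlation of deviations was -0.25 to 0.23 over 55 pairs, and 10 of them were over 0.1, so the numbers do not pair the samples. With the replicate block all 17 calls of the 10 genes stayed, and Rel was added in KO after IOP elevation (adjusted p = 0.0444), for 5 calls in place of 4.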
